A study of Mus musculus with 3 samples.

Results

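Among the epithelial cells of 3 mouse pancreatic tumours, 633 carried abundant RNA for the gastrokines Gkn1 and Gkn2, which are secreted proteins of the stomach surface. They were 633 of 8440 gated epithelial cells and of 19576 barcodes in all. The tumours, labelled KPC tumor #1 to #3, came from KPf/fC mice, a name commonly used for animals in which Cre recombinase, active in the pancreas, deletes both floxed copies of Trp53, among other changes. The Cre driver, the ages of the animals and whether each tumour had its own animal are not given in the labels. Cells negative for CD45 (leukocytes), CD31 (endothelium) and PDGFRa (many fibroblasts) were profiled with 10x 3' v2 chemistry, which counts transcripts by unique molecular identifiers (UMIs). All 3 tumours form 1 group, so each comparison is between cells of the same tumour, and p-values measure how a difference varies over these 3 samples.

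A cell was taken as gastrokine-high by 5 criteria: at least 500 genes and at most 20% mitochondrial UMIs, at least 1 Epcam UMI, at least 1 Krt18 UMI, at most 2 UMIs of Dcn plus Col3a1, and Gkn1 plus Gkn2 at 10 or more per 10000 UMIs. The gated cells below 2 per 10000 are called gastrokine-low (6970 cells), and those from 2 to 10 intermediate (837 cells). Gkn1, Gkn2, Epcam, Krt18, Dcn and Col3a1 chose the cells and Tff1, Psca and Duox2 were given with the rule as markers, so these 9 genes are described and not tested. The members were thus chosen by their own UMI counts of Gkn1 and Gkn2, and genes measured in the same cells are compared with that in view.

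Pit (foveolar) mucous cells line the surface of the stomach, secrete the gel-forming mucin Muc5ac, the trefoil peptide Tff1 and the gastrokines, and renew quickly. Neck and pyloric gland mucous cells lie deeper and make another gel-forming mucin, Muc6, together with the trefoil peptide Tff2. Gastric programmes of both kinds are known from precursor lesions and tumours of the pancreas, where they are counted among metaplastic changes.

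Gastrokine-high cells were found in each tumour and were a minority of the gated epithelium. Their number was 279 of 2414 gated cells in tumour 1 (11.6%, exact Clopper-Pearson 95% interval 10.3% to 12.9%), 147 of 2104 in tumour 2 (6.99%, 5.93% to 8.16%) and 207 of 3922 in tumour 3 (5.28%, 4.60% to 6.02%). The mean share was 7.94% ± 3.25 (SD, n = 3), and of all kept cells, inside or outside the gate, 3.34% ± 1.29 (SD, n = 3). The sort bears on these shares, and the intervals cover counting error only. No gastrokine UMI was seen in 52.6%, 65.3% and 74.6% of the gated cells of tumours 1, 2 and 3, while the median of the gastrokine-high cells was 33.1, 36.4 and 24.5 per 10000 and their highest values were 2287, 1709 and 1691. The limit at 10 cut through a continuous tail, with 31, 22 and 35 cells between 8 and 10 and 25, 14 and 19 cells between 10 and 12. Stromal cells without Epcam or Krt18 UMIs (829, 716 and 1456 cells with at least 10 Dcn plus Col3a1 UMIs) reached at most 4.59, 4.30 and 9.28 per 10000, so none of them met the gastrokine limit.

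**Figure D1:**
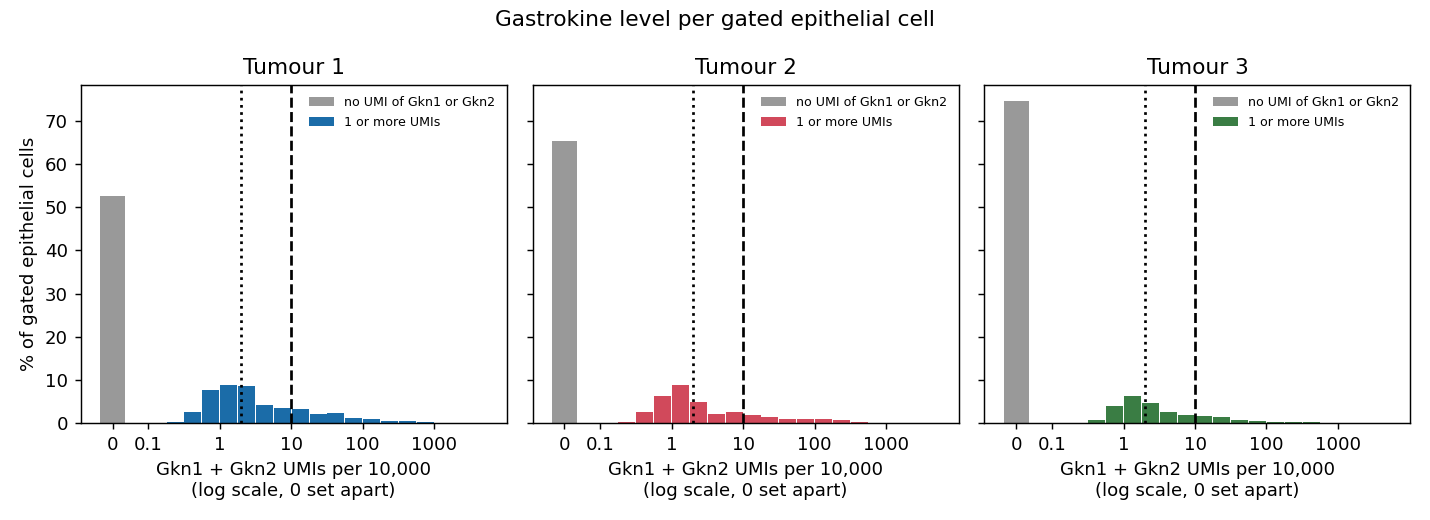
Share of the gated epithelial cells of each tumour (y axis, %) by their Gkn1 plus Gkn2 UMIs per 10000 (x axis, log scale, with cells at 0 in grey). The dotted line is at 2 and the dashed line at 10 per 10000; 11.6%, 6.99% and 5.28% of the cells lie at or right of the dashed line in tumours 1, 2 and 3.

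Median depth of the gastrokine-high cells was 12588, 8935 and 8215 UMIs in tumours 1, 2 and 3, against 8794, 8598 and 7126 in gastrokine-low cells, so the largest gap in depth was in tumour 1. Their median number of genes was 3049, 2429 and 2491, and their median mitochondrial share 5.01%, 4.92% and 5.11% against 4.02%, 3.91% and 5.36%. None of the 633 cells was marked as a doublet by Scrublet, which marked 74, 94 and 144 of all kept cells, and none shared its barcode sequence with a gastrokine-high cell of another tumour, while 50 to 65 sequences were shared by pairs of tumours over all barcodes. Summed over cells, the gastrokine-high group held 3688294, 1428026 and 1769729 UMIs, and all levels below are counts per 1000000 UMIs (CPM) of such sums, given for tumours 1, 2 and 3 in that order.

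The gastrokine genes lie close together on mouse chromosome 6, and the 250 bases before each transcription start are shown because Gkn1 and Gkn2 define the cells and Gkn3 is their neighbour in the same family. The 3 genes did not share a pattern: Gkn3 was higher still in gastrokine-low cells positive for Muc6 (values below), where Gkn1 stood at 26.8, 37.6 and 30.7 CPM. The sequences are RefSeq's for GRCm38.p6. That of Gkn1 is at chr6:87350916-87351165 on the minus strand, that of Gkn2 at chr6:87373115-87373364 on the plus strand and that of Gkn3 at chr6:87388936-87389185 on the minus strand. Capitals mark AGATAA or TGATAA, the core that GATA factors bind, and TATAAA, the TATA box, each searched on both strands, so that TTATCA is TGATAA on the opposite strand.
Gkn1: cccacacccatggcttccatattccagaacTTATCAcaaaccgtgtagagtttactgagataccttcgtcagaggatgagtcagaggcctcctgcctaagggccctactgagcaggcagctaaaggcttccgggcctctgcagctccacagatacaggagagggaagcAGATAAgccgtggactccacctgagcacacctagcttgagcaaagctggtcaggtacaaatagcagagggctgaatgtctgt
Gkn2: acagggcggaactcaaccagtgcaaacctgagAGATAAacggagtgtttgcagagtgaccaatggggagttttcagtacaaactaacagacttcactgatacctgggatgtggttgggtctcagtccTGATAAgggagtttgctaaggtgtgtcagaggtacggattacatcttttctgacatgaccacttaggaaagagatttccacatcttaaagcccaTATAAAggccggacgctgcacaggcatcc
Gkn3: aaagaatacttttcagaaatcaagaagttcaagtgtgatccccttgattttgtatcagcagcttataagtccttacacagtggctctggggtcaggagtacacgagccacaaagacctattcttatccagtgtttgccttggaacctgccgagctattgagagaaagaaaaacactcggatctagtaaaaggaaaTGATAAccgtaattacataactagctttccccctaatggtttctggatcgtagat
Gkn1 held 2 GATA-type matches, starting 220 and 82 bases before the start, Gkn2 held 2 at 218 and 123 bases and a TATAAA at 29 bases, and Gkn3 held 1 GATA-type match at 55 bases. Over the 32851 promoters of the same length in the table, 16.6% held a GATA-type match and 12.4% a TATAAA. These matches are a description of the letters and not of binding. Tff1, Tff2 and Muc5ac have no entry in that table.

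The rule genes and given markers, as a description, were high in the selected cells of every tumour. Gkn1 stood at 5067, 5611 and 5406 CPM, against 25.4, 21.7 and 16.3 CPM in gastrokine-low cells, and Gkn2 at 3514, 3550.4 and 2446 against 12.2, 4.63 and 3.73 CPM, as the rule requires. Both gastrokines had a UMI in 502 of the 633 cells, and the ratio of Gkn1 to Gkn2 UMIs was 1.44, 1.58 and 2.21. Tff1, which was not part of the rule, stood at 28186, 25731 and 24329 CPM against 802, 441 and 569 CPM, a ratio of 35.2, 58.3 and 42.8, and had a UMI in 620 of the 633 cells. With each cell thinned to 3000 UMIs, a Tff1 UMI was found in 95.1% ± 3.60 of gastrokine-high cells, 28.1% ± 9.70 of gastrokine-low and 15.1% ± 8.17 of stromal cells (SD, n = 3), so a single Tff1 UMI does not mark a cell as one that expresses it. Unthinned, the stromal share was 42.8%, 26.7% and 14.8%. Intermediate cells lay between, with Tff1 at 4649, 4556 and 4578 CPM. Psca, a surface protein of stomach and bladder epithelium, was at 307, 536 and 24.9 CPM against 39, 64.5 and 8.49 CPM, and the gastrokine-high cells of tumour 3 were below the gastrokine-low cells of tumours 1 and 2. Duox2, an oxidase that releases hydrogen peroxide at epithelial surfaces, was at 126, 91 and 39.6 against 29.2, 20.6 and 9.44 CPM, a ratio of 4.32, 4.42 and 4.19, with no overlap between the groups.

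**Figure D2:**
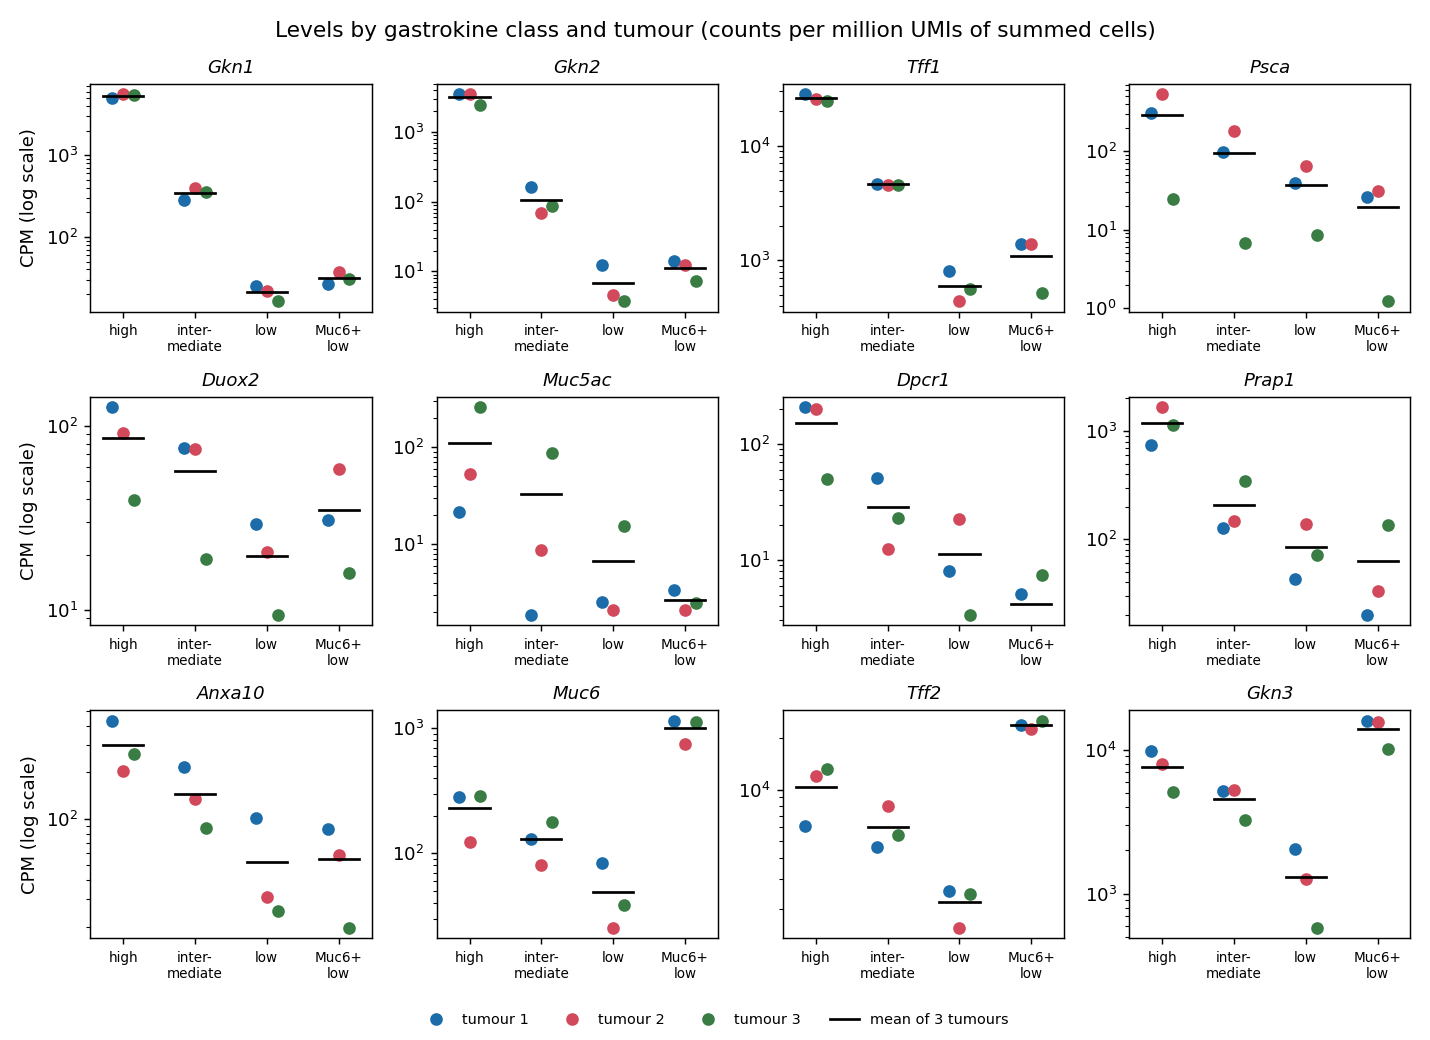
Level of 12 genes (y axes, CPM on log scales) in gastrokine-high, intermediate, gastrokine-low and Muc6-positive gastrokine-low cells (x axes); points are the 3 tumours and bars their means. Tff1 is highest in the gastrokine-high cells of every tumour, whereas Muc6, Tff2 and Gkn3 are highest in the Muc6-positive gastrokine-low cells. Where a sum has no UMI, its point is not drawn.

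Checked against the label of pit-like cells, the selection held pit genes and, in a share of its cells, RNA of gland mucous cells as well, so the label describes it in part. With each cell thinned to 3000 UMIs, Muc5ac had a UMI in 3.94%, 9.52% and 20.3% of gastrokine-high cells of tumours 1, 2 and 3 (mean 11.3% ± 8.32, SD, n = 3; unthinned 7.89%, 17.7% and 29.95%). The thinned share was 0.887% ± 0.715 in gastrokine-low and 0.189% ± 0.217 in stromal cells, which should lack it. Muc6 had a UMI in 34.1%, 18.4% and 29.9% of thinned gastrokine-high cells (mean 27.5% ± 8.13; unthinned 49.1%, 27.9% and 42.5%), against 6.34% ± 3.03 in gastrokine-low and 0.660% ± 0.278 in stromal cells. The stromal share serves as the background, whose source was not tested, and median stromal depth was 6295, 6836 and 4513.5 UMIs. Thinning left out 10 gastrokine-high, 179 gastrokine-low and 283 stromal cells, all of tumour 3. The cells are therefore called gastrokine-high below and not pit cells.

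Split by mucin at 2 or more per 10000 UMIs, 172 of the 633 cells were positive for Muc6, 61 for Muc5ac, 5 for both and 405 for neither. The 5 cells with both were all in tumour 3. Muc6-positive members made up 30.5%, 17.7% and 29.5% of the cells of tumours 1, 2 and 3, and Muc5ac-positive members 2.51%, 6.80% and 21.3%. The Muc5ac-positive share thus spanned a wider range over the tumours than the Muc6-positive share. Gkn1 averaged 4774 ± 709 CPM in Muc6-positive members and 5562 ± 161 CPM in the others (SD, n = 3), and Tff1 averaged 21029 ± 2616 and 27729 ± 1978 CPM. The trefoil peptide Tff2 averaged 22167 ± 10248 CPM in Muc6-positive members against 6962 ± 2434 CPM in the rest, Gkn3 16529 ± 3426 against 4744 ± 1969 CPM, and Agr2, a disulfide isomerase needed to fold mucins, 4624 ± 2549 against 959 ± 829 CPM. Muc5ac-positive members had Tff1 at 60043 ± 34640 CPM and Gkn1 at 22658 ± 25714 CPM, with an SD of Gkn1 above its mean, and rest on 7 and 10 cells in tumours 1 and 2. These splits within the members were not tested.

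Chief and parietal cell genes were scarce. The 6 chief cell genes summed to 17.4, 1.40 and 1.70 CPM in gastrokine-high cells, and the 6 parietal cell genes to 30.9, 30.1 and 49.7 CPM against 28.7, 16.3 and 53.1 CPM in gastrokine-low cells, and 3 members of each list had 0 UMIs in the gastrokine-high cells, among them the lipase Lipf and the intrinsic factor gene Gif of chief cells and the proton pump subunit Atp4b of parietal cells. Muc2, the gel-forming mucin of intestinal goblet cells, had 0 UMIs in thinned gastrokine-high cells, which allows a share of cells with a UMI of up to 1.08%, 2.04% and 1.52% in tumours 1, 2 and 3. The proliferation marker Mki67 had a UMI in 2.59% ± 0.115 of thinned gastrokine-high cells and 1.98% ± 0.905 of gastrokine-low cells, and Top2a in 2.76% ± 1.89 and 2.99% ± 1.84 (SD, n = 3). With 4 to 7 positive cells per tumour for Mki67, a moderate difference was not detectable at this depth.

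Across all genes, gastrokine-high cells differed from gastrokine-low cells of the same tumours in pit, gland and other gastric mucous genes, which were higher, and in mesenchymal genes, YAP targets and acinar and islet genes, which were lower. Of 12943 tested genes, 2555 (19.7%) passed an adjusted p of 0.05 in edgeR's quasi-likelihood test with the tumour as a block, 1166 (9.01%) of them higher and 1389 (10.7%) lower in gastrokine-high cells. The median log2 fold change over all tested genes was -0.09. Without the tumour block 142 genes passed, 86 higher and 56 lower, with each cell thinned to 3000 UMIs 1468 passed, and with Dcn plus Col3a1 at 0 in every cell 1493 passed. DESeq2 called 1813 genes, 1046 higher and 767 lower, so that 57.7% of its calls were higher against 45.6% of edgeR's. Fold changes below are log2 values with their standard errors from edgeR, and adjusted p-values are Benjamini-Hochberg values of the same test over all tested genes.

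The 12 genes with the largest differences among those higher in all 3 tumours were led by secreted and gastric surface products. Bpifb1, a secreted protein of mucosal surfaces, was at 4.61, 53.2 and 3.96 CPM against 0.0532, 0.949 and 0.0732 CPM (log2 fold change 5.96 ± 0.43, adjusted p = 4.85e-07), with the highest level in tumour 2. Pla2g10, a secreted phospholipase, was at 23.9, 9.10 and 58.8 against 0.958, 0.335 and 2.12 CPM (4.86 ± 0.25). Prap1, a secreted acidic protein of gut epithelium, was at 749.9, 1658 and 1141 against 42.6, 138 and 71 CPM (log2 fold change 4.06 ± 0.14, adjusted p = 8.65e-10). Dpcr1, a mucin-like membrane protein also called Mucl3, was at 208, 202 and 50.3 against 7.98, 22.7 and 3.37 CPM (4.07 ± 0.25). The groups did not overlap for any of these 4 genes, nor for 3145 of the 12943 tested genes in all. That count stands beside each later mention of overlap against gastrokine-low cells. The others were Bcas1 (4.09), Muc5ac (4.08), the quinone reductase Nqo1 (3.90), the secreted factor Fam3b (3.79), the proton pump subunit Atp6v0d2 (3.19), the morphogen Shh (2.95), Phgr1 (2.90) and the gastric annexin Anxa10 (2.86). Nqo1 was at 30.4, 2.101 and 71.2 CPM against 2.77, 0.335 and 4.03 CPM, higher within each tumour but overlapping between tumours, with tumour 2 low in both groups. The largest adjusted p among all 24 genes named by size was 4.12e-05.

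The 12 genes with the largest differences among those lower were islet and acinar hormones or enzymes, cytokines and genes of other lineages. The direction of Ppy, Ghrl and Ctrb1 turned, and the call of Reg2 was lost, when cells rich in acinar or islet RNA were left out of both groups (values below). The pancreatic hormone gene Ppy was at 2.98, 3.50 and 2.26 CPM against 178, 241 and 123 CPM, and ghrelin (Ghrl) at 0.813, 6.30 and 0 against 19.6, 409.7 and 0.329 CPM, of which most came from tumour 2. Gcg, which encodes glucagon, had 1 UMI in all gastrokine-high cells and stood at 0.0532, 17.6 and 51.2 CPM in gastrokine-low cells. The acinar enzyme Ctrb1 was at 261, 11.9 and 46.9 against 2493, 352 and 3266 CPM and Reg2 at 51, 0.700 and 3.39 against 468, 46.8 and 276 CPM. Csf2, which encodes the cytokine GM-CSF, had 3 UMIs in all gastrokine-high cells and stood at 31.9, 42.2 and 10.4 CPM in gastrokine-low cells. Inhba, the activin A subunit, was at 1.63, 1.40 and 0 against 31.5, 90.5 and 6.15 CPM (log2 fold change -4.81 ± 0.35, adjusted p = 4.80e-07). Ankrd1, a target of the YAP coactivator, was at 5.15, 7.0 and 0 against 128, 94.8 and 5.23 CPM (-4.15 ± 0.25). Trbc1 (-4.61) and Gzme (-4.23), genes known from lymphocytes, Zg16 (-4.03), a goblet cell lectin, and Dcdc2a (-3.95) completed the list. Zg16 rests on 47, 0 and 1 UMIs in the gastrokine-high cells of tumours 1, 2 and 3 and on 139.5, 3.01 and 143 CPM in gastrokine-low cells, so that 1 UMI remained without tumour 1. Without tumour 1, Reg2 gave -6.20 and Dcdc2a -2.21.

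**Figure D3:**
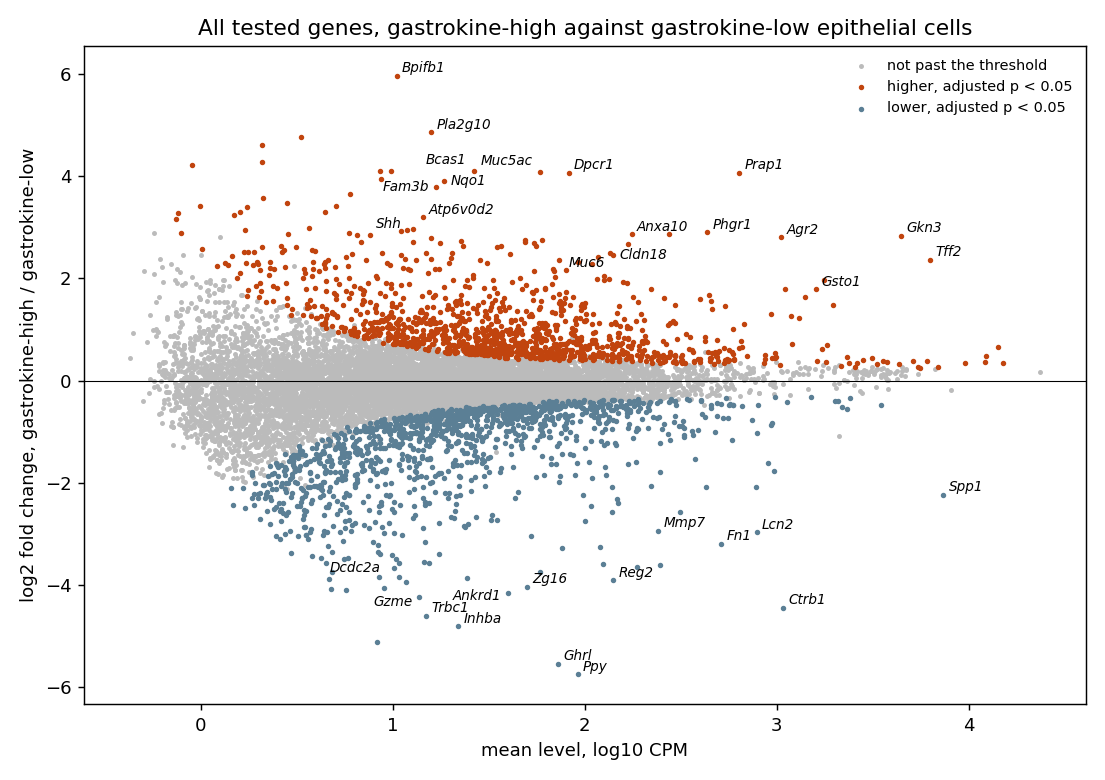
Log2 fold change of gastrokine-high over gastrokine-low cells (y axis) against the mean level of both groups (x axis, log10 CPM) for the tested genes with more than 3 UMIs in both groups; 397 genes with 3 or fewer are not drawn. Red points are higher and blue points lower at adjusted p below 0.05. Labels mark the drawn genes among those named by size and 10 others of the text, from Bpifb1 at the top to Ppy at the bottom. Gcg and Csf2, named by size with 3 or fewer UMIs in gastrokine-high cells, are neither drawn nor labelled.

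Acinar and islet genes were among the lower genes, and some gated cells carried them in quantity. The 12 acinar genes summed to 524, 94.5 and 262 CPM in gastrokine-high and 3859, 546 and 4195 CPM in gastrokine-low cells, and 9 of 11 tested were lower and none higher, with a median of -3.57 or, with Ptf1a (0 UMIs in gastrokine-high cells) at the bound that 3 counts over the group allow, -3.09. The 12 islet and enteroendocrine genes summed to 25.5, 32.2 and 24.9 against 647, 529 and 290.4 CPM, and 7 of 9 tested were lower. When cells with 5 or more acinar or islet UMIs per 10000 were left out of both groups, a step chosen after seeing the data, Ctrb1 gave 0.25, Prss2 0.25, Ppy 0.26 and Ghrl 0.024, so their direction turned, and Pyy and Reg2 no longer passed. Ctrb1, Prss2, Ghrl and Pyy are on the lists that chose the cells to leave out, so their change was largely set by the step. Ppy and Reg2 are not on those lists. The count of calls was then 2753, and each other gene given a fold change against gastrokine-low cells kept its side of the threshold.

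Markers of cells outside the epithelium were at low levels, with those of fibroblasts and mesothelium at overlapping levels in both groups. The summed pericyte and endothelial markers were lower in the gastrokine-high cells of each tumour, most of all in tumour 1. Where the sums were closest, they stood at 41.8 against 47.4 CPM for pericytes and 9.10 against 11.4 CPM for endothelium. The 10 fibroblast markers, which include Dcn and Col3a1 of the rule, summed to 193, 129 and 150.3 CPM in gastrokine-high and 195, 182 and 146 CPM in gastrokine-low cells, and none of 8 tested passed. The 9 pericyte and smooth muscle markers summed to 36.3, 36.4 and 41.8 against 161, 90.2 and 47.4 CPM with 1 of 8 lower, the 8 endothelial markers to 13.3, 9.10 and 6.78 against 59.1, 11.4 and 13.7 CPM with 4 of 7 lower, and the 7 mesothelial markers to 283, 265 and 519 against 285, 265 and 739 CPM with none of 4 passing. Over all tested genes 10.7% were lower, and the count of pericyte genes is near that share. The lower pericyte sums are therefore not taken as a difference in the pericyte list. The 12 leukocyte markers summed to 17.1, 16.8 and 6.22 against 26.1, 19.98 and 13 CPM with 1 of 6 lower, and Ptprc had a UMI in 0.573% ± 0.705 of thinned gastrokine-high and 0.147% ± 0.0828 of gastrokine-low cells. The part of these cells in the genes that were lower was not tested.

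Pit and gastric surface genes were higher almost throughout. Of 11 tested genes of the pit list, apart from those that define the cells, 9 were higher, none lower and 2 did not pass, with a median of 2.29 against -0.09 over all genes. Shares over all tested genes, 9.01% higher and 10.7% lower, stand beside this count and those of later lists against gastrokine-low cells. Muc5ac was at 21.4, 53.2 and 257 CPM against 2.55, 2.12 and 15.5 CPM (log2 fold change 4.08 ± 0.22, adjusted p = 4.68e-08), and its level in tumour 3 stood far above the other 2 tumours in both groups. Duoxa2, the maturation factor that Duox2 needs, was at 276, 143 and 118 against 54.7, 27.5 and 37.1 CPM (log2 fold change 2.29 ± 0.17, adjusted p = 5.29e-07). Gkn3, the third gastrokine, was at 9845, 7897 and 5109 against 2049, 1262 and 579.7 CPM (log2 fold change 2.84 ± 0.12, adjusted p = 5.53e-09). The groups did not overlap for these 3 genes. Gkn3 is counted in the pit list, although its level was higher still in Muc6-positive gastrokine-low cells (values below). The membrane mucin Muc1 (1.40 ± 0.11), the granule transport protein Sytl2 (2.49 ± 0.21), the fucosyltransferase Fut2 (1.82 ± 0.21), which makes the H antigen on gastric mucin, and the sulfotransferase Sult1c2 (1.57 ± 0.19) were also higher. Onecut2 (-0.16 ± 0.11, adjusted p = 0.359) and Gcnt1 (0.84 ± 0.30, adjusted p = 0.0619) did not pass. Gcnt1 did pass without tumour 2 (1.11) and without the filter on low counts (0.84), and gave 0.41 without tumour 3.

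Of 15 tested genes of gastric epithelial identity, 14 were higher and none lower, with a median of 1.19. Anxa10 was at 432, 204 and 260.5 CPM against 102, 31.1 and 25.3 CPM (log2 fold change 2.86 ± 0.18, adjusted p = 1.84e-07). Cldn18, the stomach claudin, was at 51.5, 132 and 493 against 12, 19.4 and 109 CPM (log2 fold change 2.49 ± 0.15, adjusted p = 1.45e-07) and, like Muc5ac, was highest in tumour 3. Tff2 was at 6115, 11954 and 13105 against 2558, 1555 and 2449.6 CPM (log2 fold change 2.37 ± 0.21, adjusted p = 3.30e-06). The aspartic protease Ctse (1.26 ± 0.11), the membrane proteins Vsig1 (2.33 ± 0.18) and Vsig2 (1.79 ± 0.12), and the transcription factors Gata5 (1.17 ± 0.15), Gata6 (0.79 ± 0.18) and Foxq1 (1.14 ± 0.19) were also higher. Gata6 did not pass when each cell was thinned to 3000 UMIs or when Dcn plus Col3a1 was held at 0.

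Most tested genes of neck and pyloric gland mucous cells were also higher, with 7 of 9 tested higher, 1 lower and a median of 0.70. Summed over the 10 listed genes, levels were 21498, 21447 and 17074 CPM in gastrokine-high cells. In gastrokine-low cells they were 19825, 13384 and 18035 CPM, so the sums overlapped and that of tumour 3 was lower in gastrokine-high cells. Muc6 was at 283, 124 and 285 CPM against 83.2, 25.3 and 38.5 CPM (log2 fold change 2.47 ± 0.17, adjusted p = 3.29e-07), without overlap. The chloride channel Cftr was at 311, 236 and 46.9 against 96.4, 51.5 and 13.8 CPM (2.05 ± 0.14), the protease Bace2 at 241, 259 and 237 against 86.4, 72.4 and 58.2 CPM (1.94 ± 0.13), and the alarmin Il33 at 113, 52.5 and 9.61 against 24.1, 7.65 and 1.94 CPM (2.61 ± 0.18). Cftr and Il33 were lowest in tumour 3 in both groups. Glipr1 was lower (log2 fold change -1.07 ± 0.18, adjusted p = 0.000949).

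Intestinal lists were split. Of 11 tested goblet cell genes, 6 were higher and 3 lower: the secretory cell transcription factor Spdef (2.30 ± 0.16), the stress sensor Ern2 of mucous cells (2.71 ± 0.14), Creb3l1 (1.66 ± 0.19) and Bcas1 were among the higher genes, while Zg16 and Muc2 were among the lower ones, Muc2 with 1 UMI in all gastrokine-high cells. Ern2 was at 93.8, 72.1 and 83.6 CPM against 17.8, 11.6 and 13.4 CPM. Of 10 tested enterocyte genes, 5 were higher and 2 lower, the higher ones including the galectin Lgals4 at 1900.1, 1929 and 1191 against 561, 454 and 572 CPM (1.79 ± 0.16), Krt20 (1.30 ± 0.19), the fatty acid carrier Fabp2 (2.45 ± 0.45) and the microvillus protein Vil1 (0.94 ± 0.16).

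Enzymes that build mucin sugars were higher as a group, with 12 of 19 tested higher, none lower and a median of 1.10. Galnt6 (2.18 ± 0.25), Galnt7 (1.92 ± 0.12) and Galnt12 (1.93 ± 0.19) start O-glycans on mucins, C1galt1 (1.10 ± 0.14) extends them to core 1 and Gcnt3 (1.52 ± 0.15) branches them. With thinned cells Galnt12 gave 1.28. Galnt7 was at 324, 270.3 and 176 CPM against 98.7, 82.5 and 48.9 CPM, without overlap. Of 23 tested genes of the secretory pathway, 9 were higher, none lower and 14 did not pass, with a median of 0.30. Agr2 stood out at 2181, 2721 and 609 against 361, 341 and 119.6 CPM (log2 fold change 2.81 ± 0.13, adjusted p = 1.29e-08), followed by the transcription factor Creb3l4 (2.19 ± 0.22), and the translocon protein Ssr4 (0.64 ± 0.10) and the chaperone Calr (0.60 ± 0.11) differed less.

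Genes of reactive oxygen handling were mostly higher, with 12 of 21 tested higher, 1 lower and a median of 0.53. Noxo1 (1.97 ± 0.19) and Noxa1 (2.31 ± 0.25), the organiser and activator of the NADPH oxidase Nox1, were higher, beside Duox2 and Duoxa2. The glutathione transferases Gsto1, at 3133, 2579 and 1569 CPM against 852, 654 and 777 CPM (log2 fold change 1.78 ± 0.16, adjusted p = 4.89e-06), and Gsta4, at 1832, 2335 and 1991 against 671, 602 and 985 CPM (1.63 ± 0.15), did not overlap between the groups, and the peroxidase Gpx2 was also higher (1.56 ± 0.19).

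Antimicrobial genes differed in both directions, with 3 of 15 tested genes of mucosal defence higher and 6 lower. Lcn2, which sequesters bacterial siderophores, was at 83.5, 60.9 and 341 CPM against 909, 421 and 2892 CPM (log2 fold change -2.97 ± 0.13, adjusted p = 6.25e-09), lower in every tumour and without overlap. The lectins Reg3b (-1.61 ± 0.34) and Reg3g (-1.63 ± 0.19) were lower. Reg3b gave -0.86 without tumour 1 and did not pass with DESeq2. The peptidoglycan-binding protein Pglyrp1 was higher, at 1109.7, 1638 and 1095 against 442, 643 and 640.2 CPM (log2 fold change 1.31 ± 0.13, adjusted p = 1.05e-05), as was Bpifb1.

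Among 23 tested chemokines and cytokines, 4 were higher and 8 lower, where 9.01% of all tested genes were higher and 10.7% lower. The same shares stand beside the 3 lists that follow. Il18, a cytokine of mucosal epithelium, was at 93, 105 and 61 CPM against 35.3, 35.2 and 26.6 CPM (log2 fold change 1.55 ± 0.14, adjusted p = 4.89e-06). Of the ligands and receptors of the EGF family, 2 of 11 were higher, the receptor Erbb3 (0.92 ± 0.14) and the ligand Btc (0.81 ± 0.15), and 2 were lower, including the ligand Hbegf (-0.94 ± 0.14), with a median of 0.18. Of 7 tested hedgehog genes, 2 were higher and 2 lower. The higher 2 were the ligands Shh, at 16.3, 25.2 and 19.8 against 0.958, 4.02 and 4.94 CPM (log2 fold change 2.95 ± 0.34, adjusted p = 3.36e-05), and Ihh (1.44 ± 0.23), which did not pass when each cell was thinned to 3000 UMIs. Of 14 tested feedback genes of RAS and MAPK signalling, 3 were lower and none higher, among them Ier3 (-1.53 ± 0.18).

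Mesenchymal genes and targets of YAP were lower. Of 14 tested genes of epithelial-mesenchymal transition, 9 were lower and none higher, with a median of -1.41. Fibronectin (Fn1) was at 69.7, 117 and 87.6 CPM against 724, 1177 and 891 CPM (log2 fold change -3.19 ± 0.12, adjusted p = 9.73e-10) and vimentin (Vim) at 265, 94.5 and 98.9 against 554, 1070.3 and 483 CPM (log2 fold change -2.07 ± 0.31, adjusted p = 0.000333), both without overlap. The repressor Zeb2 (-2.86 ± 0.43), the galectin Lgals1 (-1.78 ± 0.18) and Sparc (-1.16 ± 0.19) were also lower. With each cell thinned to 3000 UMIs, Zeb2 gave -1.91. The rule limits Dcn and Col3a1 in both groups, and both genes are among the fibroblast markers summed above. The overlap of those sums was thus partly set by the rule. The part of stromal RNA in the lower mesenchymal genes was not tested. Of 13 tested targets of YAP and TEAD, 9 were lower and none higher (median -1.01), including Cyr61 (-1.87 ± 0.22), Ctgf (-1.97 ± 0.26) and the receptor kinase Axl (-2.67 ± 0.26, or -1.59 with thinned cells). Of 18 immediate early and heat shock genes, 10 were lower and 1, Hspa1b (0.79 ± 0.15), higher. The lower ones included Fos (-0.48 ± 0.10), Jun (-0.70 ± 0.12) and Klf6 (-0.92 ± 0.12).

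Of 11 tested duct genes, 4 were lower and 2 higher, where 10.7% of all tested genes were lower and 9.01% higher. Osteopontin (Spp1), a duct and tumour cell product, was at 3279, 3183 and 1121 CPM against 13191, 14493 and 8938 CPM (log2 fold change -2.24 ± 0.16, adjusted p = 4.21e-07), and the matrix protease Mmp7 at 5.15, 30.8 and 127 against 104, 136 and 1046 CPM (log2 fold change -2.94 ± 0.25, adjusted p = 2.22e-06), where tumour 3 was highest in both groups. Cldn4 was lower (-1.26 ± 0.14) and Krt19 slightly higher (0.61 ± 0.14). Of 16 tested genes of the classical type of pancreatic tumour, 12 were higher and 2 lower (median 1.27), including Fxyd3 (1.98 ± 0.10), Tspan8 (1.11 ± 0.11) and Hnf4a (0.89 ± 0.18). The list shares Agr2, Anxa10, Areg, Cldn18, Ctse, Gata6, Krt20, Lgals4, Lyz2 and Tff3 with other lists. Of 7 tested basal-like genes, none was higher and 1 lower, a count near the 10.7% lower over all tested genes.

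Over all tested genes 9.01% were higher and 10.7% lower, and the counts of the lists that follow stand beside these shares. Of 24 tested endodermal transcription factors, 8 were higher and 3 lower, with a median of 0.28. The higher ones included Foxa1 (1.496 ± 0.25), Pparg (1.38 ± 0.16) and Elf3 (0.79 ± 0.16), and Rora was lower (-2.52 ± 0.28). Of 21 tested Wnt targets and stem cell genes, 2 were higher, a share near that over all genes, with Prom1, which encodes CD133, at 0.90 ± 0.20, and 6 were lower, among them the chromatin factor Hmga2 at 16, 51.1 and 43.5 CPM against 149, 402 and 171 CPM (log2 fold change -2.56 ± 0.19, adjusted p = 6.24e-07). Claudins and tight junction genes were split, 5 higher and 3 lower of 17, with Tjp3 higher (1.14 ± 0.17) and Cldn10 lower (-3.40 ± 0.28). Of 22 S phase genes 1 was lower and none higher, and of 22 G2 and M phase genes 1 was higher and 1 lower. The cell cycle inhibitors Cdkn2a, at 323, 387 and 436 against 459.6, 1011 and 739.9 CPM (-0.73 ± 0.15), and Cdkn2b (-1.26 ± 0.16) and the cyclin Ccnd1 (-0.71 ± 0.13) were lower. Without tumour 2, Cdkn2a gave -0.45 and still passed. Among MHC class I genes, B2m was lower (-0.66 ± 0.12) and H2-T23 higher (1.12 ± 0.14), and the invariant chain Cd74 was lower (-2.99 ± 0.34).

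The remaining lists were mostly small or split. Their counts, beside the 19.7% called over all genes, were 2 higher and 1 lower of 5 tested tuft cell genes, 0 higher and 2 lower of 13 of the Notch pathway, 1 higher and 1 lower of 5 keratins, 0 higher and 2 lower of 18 of hypoxia and glycolysis, 3 higher and 0 lower of 19 of lipid synthesis and 2 higher and 1 lower of 18 of the interferon response. Among p53 targets, INK4 genes and cyclins they were 1 higher and 5 lower of 21, among MHC class I genes 1 higher and 4 lower of 11 and among MHC class II genes 0 higher and 2 lower of 6. Neither tested haemoglobin gene passed.

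**Figure D4:**
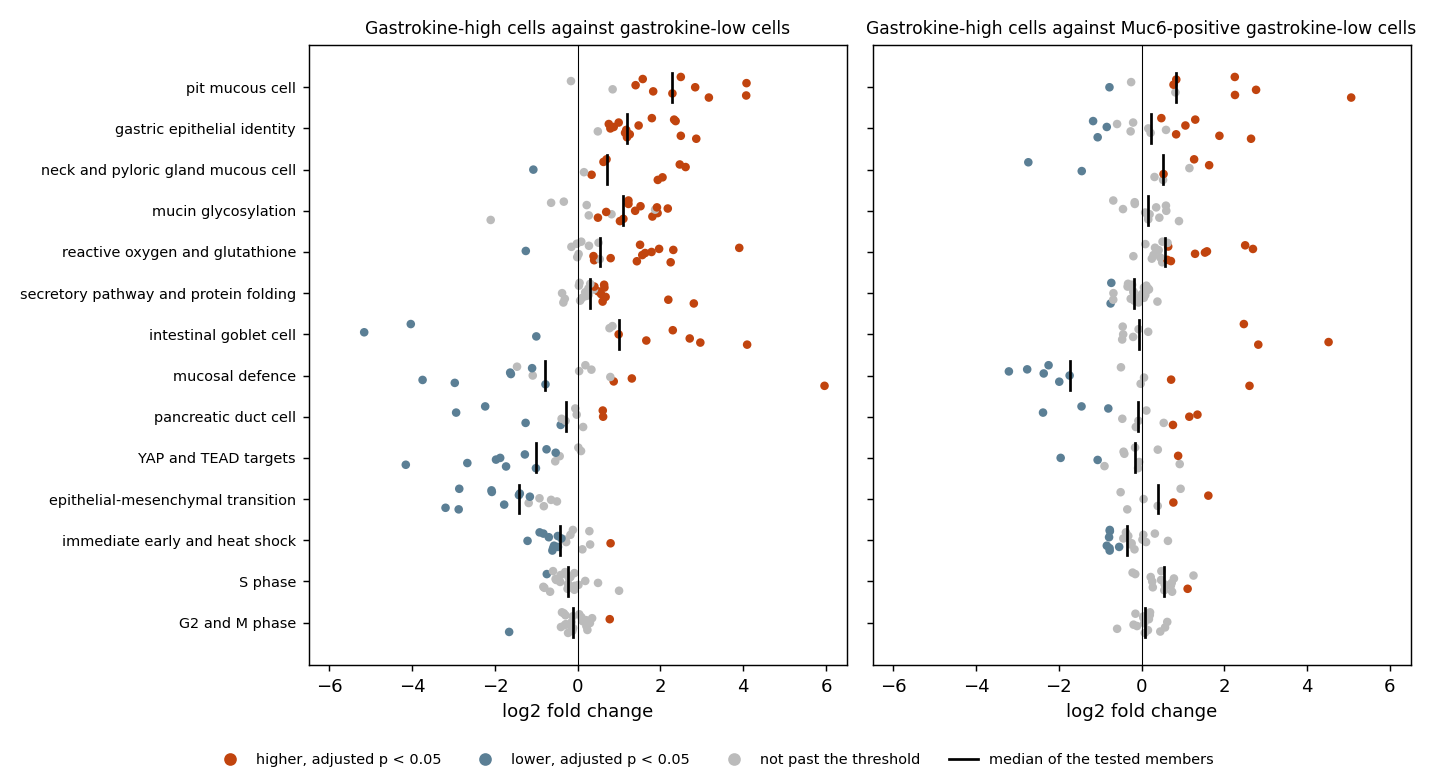
Log2 fold changes (x axes) of the tested members of 14 lists (y axis) against gastrokine-low cells (left) and against Muc6-positive gastrokine-low cells (right); red is higher and blue lower at adjusted p below 0.05, grey did not pass, and bars are medians. The pit list has a median of 2.29 on the left and 0.84 on the right, and both comparisons share the gastrokine-high cells.

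Tff1 and Prap1 followed the mean gastrokine level in steps, and other genes did so in part. In 6 classes of gated cells by Gkn1 plus Gkn2 per 10000 (6970 cells below 2, 837 from 2 to 10, 210 from 10 to 20, 199 from 20 to 50, 89 from 50 to 100 and 135 at 100 or more), mean Tff1 was 604 ± 183, 4594, 10536, 18409, 36835 and 56431 ± 9003 CPM over the 3 tumours (SD, n = 3, given for the lowest and the highest class). Prap1 took the same order, at 83.9 ± 49, 207, 501, 775, 1526 and 2584 ± 1384 CPM. Gkn3 was at 1297 ± 735, 4537, 7178, 7118, 7699.5 and 8985 ± 3009 CPM, so most of its difference lay below 20 per 10000. Muc6 was at 49 ± 30.3, 129, 168, 243, 329 and 265 ± 153 CPM, with the last class below the one before it. Spp1 was at 12208 ± 2905, 6099.9, 3647, 2109, 2277 and 1514 ± 917 CPM, with a slight turn upwards from 20 to 50 to the class above it, and Fn1 at 931 ± 229, 239.6, 127, 71, 52.5 and 86.7 ± 32.7 CPM, higher again in the last class. Tff2 was at 2188 ± 551, 6051, 7968, 11213, 17653 and 9143 ± 4337 CPM, with a drop in the last class, and Prap1 was not higher at every step within tumour 1. These are means of 3 sums, with no test, and the classes are cut from the genes of the rule.

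**Figure D5:**
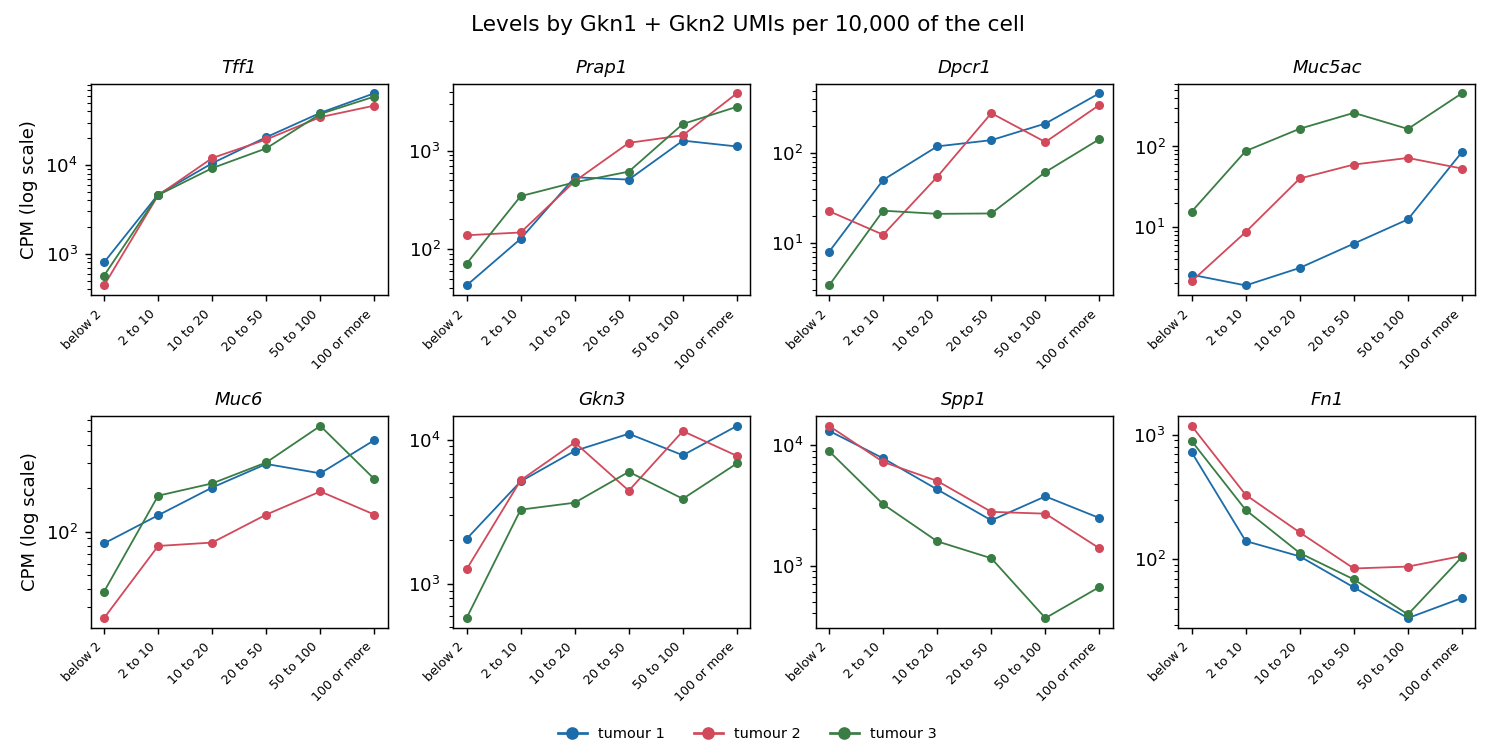
Level of 8 genes (y axes, CPM on log scales) in classes of gated epithelial cells by Gkn1 plus Gkn2 UMIs per 10000 (x axes), with 1 line for each tumour. Tff1 is higher in each class than in the one below it in all 3 tumours, and Spp1 and Fn1 are highest in cells below 2 per 10000.

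Gastrokine-high cells were next set against the Muc6-positive gastrokine-low cells of the same tumours (149, 58 and 124 cells, with Muc6 at 2 or more and Muc5ac below 2 per 10000). Of 8905 tested genes, 869 (9.76%) passed, 584 (6.56%) higher and 285 (3.20%) lower, with a median log2 fold change of 0.04. Of the same 8905 genes, 1276 did not overlap between the groups. Muc5ac and Muc6, which chose the reference cells, were left out of the test. DESeq2 called 272 genes, 30 passed without the tumour block, and 295 passed without tumour 1. Median depth of the reference cells was 6910, 7629 and 5998.5 UMIs, below that of the gastrokine-high cells in every tumour. With each cell thinned to 3000 UMIs, 359 genes passed.

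Most tested pit genes were higher in the gastrokine-high cells than in these Muc6-positive cells, with 6 of 9 higher, 1 lower and a median of 0.84. Dpcr1 was at 208, 202 and 50.3 CPM against 5.02, 0 and 7.36 CPM (log2 fold change 5.07 ± 0.41, adjusted p = 8.12e-07), Duoxa2 at 276, 143 and 118 against 40.2, 41.8 and 39.3 CPM (log2 fold change 2.26 ± 0.23, adjusted p = 7.81e-06) and Sytl2 at 32, 30.8 and 11.3 against 6.69, 8.36 and 2.45 CPM (2.25 ± 0.34). As a description, Tff1 was at 1382, 1391 and 524 CPM in the reference cells, and the level in gastrokine-high cells was 20.4, 18.5 and 46.4 times as high. Gkn3 went the other way, at 9845, 7897 and 5109 against 15900, 15586 and 10063 CPM (log2 fold change -0.77 ± 0.09, adjusted p = 1.75e-05), and no tumour overlapped. The 12 genes of the pit list, Gkn3 among them, summed to 11718, 9694 and 6732 CPM in gastrokine-high and 17222, 16986 and 11023 CPM in Muc6-positive cells. Of 15 tested gastric identity genes 6 were higher and 3 lower. Anxa10 (2.65 ± 0.23), Cldn18 (1.88 ± 0.23) and Ctse (0.84 ± 0.10) were higher, while Tff2, at 6115, 11954 and 13105 against 23920.4, 22723 and 25278 CPM (log2 fold change -1.17 ± 0.14, adjusted p = 3.22e-05), and the water channel Aqp5 (-1.06 ± 0.19) were lower. With thinned cells, Gkn3 gave -0.39 and Tff2 -0.73, both still passing. Of 8 tested gland genes, 3 were higher and 2 lower, with a median of 0.53, so the gland list as a whole was not lower. The lower ones were Dmbt1, a mucosal scavenger receptor, at 847, 1375 and 1365 against 2639, 3163 and 4788 CPM (log2 fold change -1.44 ± 0.12, adjusted p = 1.35e-06), and pepsinogen C (Pgc), at 24.9, 2.80 and 70.1 against 205, 77.3 and 332 CPM (log2 fold change -2.73 ± 0.24, adjusted p = 1.82e-06).

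By size, the largest differences in favour of the gastrokine-high cells included involucrin (Ivl), at 46.1, 118 and 5.09 CPM against 1 UMI in all reference cells, Atp6v0d2, at 23, 41.3 and 12.4 CPM against 2 UMIs, and Clca1, at 17.6, 48.3 and 2.83 CPM against 2 UMIs. Prap1 was at 749.9, 1658 and 1141 against 20.1, 33.4 and 135 CPM (log2 fold change 4.46 ± 0.33, adjusted p = 5.82e-07). The glutathione transferase Gsta1 was at 235, 207 and 413 against 13.4, 14.6 and 23.3 CPM (log2 fold change 4.18 ± 0.20, adjusted p = 4.74e-09), and the homeobox factor En1 at 77.8, 206 and 26 against 3.35, 10.4 and 7.36 CPM (log2 fold change 3.88 ± 0.35, adjusted p = 2.53e-06). The others were Dpcr1, Lypd8 (4.26), Pla2g10 (3.32), the activin inhibitor Fst (3.22), Cwh43 (3.15) and the glycine decarboxylase Gldc (3.06). With DESeq2, Pla2g10 did not pass, and with Dcn plus Col3a1 at 0 Lypd8 gave 2.75.

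The 12 largest differences in the other direction were of mixed kinds. The granule glycoprotein Gp2 was at 15.2, 7.0 and 10.2 CPM against 387, 91.9 and 121 CPM (log2 fold change -4.08 ± 0.23, adjusted p = 1.70e-08), Reg3b at 224, 523 and 421 against 3818, 4059 and 3134 CPM (log2 fold change -3.20 ± 0.18, adjusted p = 1.70e-08) and Reg3g at 44.7, 125 and 72.3 against 422, 689 and 543 CPM (log2 fold change -2.76 ± 0.16, adjusted p = 2.78e-08), all without overlap. Cldn10 (-3.88), Dcdc2a (-3.95), the complement gene C4b (-3.17), the kallikrein Klk1 (-3.11), the transcription factor Bcl11a (-3.07), Tstd1 (-2.96), Wfdc15b (-2.80), Pgc and Tceal8 (-2.71) completed the list, in which the largest adjusted p of the 24 genes was 0.00269. Without tumour 1, Bcl11a, Wfdc15b and Tceal8 did not pass, and Tceal8 did not pass with DESeq2. Tceal8 gave -1.20 without tumour 1 and -4.08 without tumour 2, and Klk1 -4.86 with Dcn plus Col3a1 at 0. In all, 6 of 11 tested genes of mucosal defence were lower, among them Reg1 (-2.36 ± 0.23), Lcn2 (-1.99 ± 0.18), the antibody transporter Pigr (-1.74 ± 0.24) and Wfdc18 (-2.25 ± 0.18), and 2 were higher. The 12 acinar genes summed to 3413, 196 and 939.7 CPM in the reference cells against 524, 94.5 and 262 CPM, and 6 of 7 tested were lower in gastrokine-high cells. The 12 islet and enteroendocrine genes summed to 2438, 6.27 and 8.59 CPM in the reference cells. The part of these cells in the comparison was not tested. For it, the step without cells rich in acinar or islet RNA was not run.

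The epithelial state differed between the gastrokine-high and the Muc6-positive cells in keratins, oxidative genes and glycolysis. Krt20, a keratin of mature surface epithelium, was at 364, 335 and 125 CPM against 77, 33.4 and 18.4 CPM (log2 fold change 2.76 ± 0.20, adjusted p = 4.05e-07). Krt7 (1.35 ± 0.14), Krt8 (1.10 ± 0.11) and Krt19 (1.16 ± 0.11) were higher, and Sox9, a duct and progenitor factor, was lower (log2 fold change -0.80 ± 0.15, adjusted p = 0.0022). Of 18 tested genes of reactive oxygen handling, 8 were higher and none lower, among them Gsto1 (1.53 ± 0.15), Nqo1 (2.69 ± 0.41) and the cystine carrier Slc7a11 (2.505 ± 0.32). Nqo1 gave 1.76 without tumour 3 and 4.25 with thinned cells, passing in both. Of 18 hypoxia and glycolysis genes, 7 were higher and none lower, including Gapdh (0.86 ± 0.15), Ldha (0.88 ± 0.15) and Eno1 (0.89 ± 0.15), and without tumour 1 Gapdh gave 0.57. None of 13 mucin glycosylation genes passed, with a median of 0.16. Of 23 secretory pathway genes, 2 were lower and none higher, Agr2 (-0.75 ± 0.17; without tumour 3 -0.38; not passing with thinned cells) and Xbp1 (-0.73 ± 0.16). Spp1 (-1.45 ± 0.13) and Mmp7 (-2.38 ± 0.27) were again lower, as were Cyr61 (-1.95 ± 0.22) and Jun (-0.78 ± 0.13). Shh was at 16.3, 25.2 and 19.8 against 3.35, 6.27 and 6.13 CPM (log2 fold change 2.08 ± 0.36, adjusted p = 0.00147). Cdkn2a was higher than in the Muc6-positive cells (log2 fold change 0.73 ± 0.14, adjusted p = 0.00246). Where 6.56% of all tested genes were higher and 3.20% lower, the counts among genes of the classical tumour type were 10 higher and 1 lower of 14 (median 1.08), among chemokines and cytokines 7 higher and 0 lower of 11, among goblet cell genes 3 higher and 0 lower of 9, among immediate early and heat shock genes 0 higher and 7 lower of 18 and among G2 and M phase genes 0 higher and 0 lower of 16.

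Gastrokine-low cells positive for Muc5ac and not Muc6 were too few for a test, with 3, 6 and 42 cells in tumours 1, 2 and 3 and a limit of 20 in each. In the 42 cells of tumour 3, Muc5ac was at 743 CPM, Cldn18 at 908 CPM and Tff1 at 3770.2 CPM, beside 257, 493 and 24329 CPM in the gastrokine-high cells of that tumour. Gkn3 was at 216 CPM there beside 5109 CPM, and Prap1 had 4 UMIs.

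The authors' deposited table gives a log2 fold change for each gene in each of 19 clusters, with no map from cells to clusters. In the authors' deposited table, cluster 8 has the highest value of the 19 for Gkn1 (4.23), Gkn2 (4.69), Tff1 (4.01), Psca (4.04), Duox2 (3.69), Prap1 (4.08), Anxa10 (2.97), Gkn3 (3.00) and Agr2 (2.97). In the authors' deposited table, Muc6 (2.88) and Tff2 (2.92) are highest in cluster 7, with 1.89 and 1.27 in cluster 8, and Muc5ac is highest in cluster 1 (2.43) and cluster 5 (2.37), with 0.37 in cluster 8. These values come from the same cells and are no independent evidence.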

How the data were processed

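UMI counts of sorted cells from 3 KPf/fC tumours were used. The authors deposited 1 matrix of whole-number counts, in which each barcode's suffix gives its tumour, per the labels. They also deposited a table of log2 fold changes and adjusted p-values for each cluster, per the file headers, whose test is not named there. Cell Ranger 2.1.1 and Seurat 3.0 are in the submitters' processing notes, where neither has a stated role. No source used here names the genome build, the aligner settings or any downsampling when libraries were joined. The matrix held 28692 genes, 21005 of them with counts.

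From the counts, cells were gated as described, keeping 5802, 6072 and 7428 of 5874, 6087 and 7615 barcodes, with 60801677, 67262634 and 53162622 UMIs before filtering. Counts were summed per tumour and class, 6 sums per comparison, and fitted with edgeR 4.0.16 (TMM, filterByExpr, quasi-likelihood test, Benjamini-Hochberg at 0.05) in R 4.3.3, with the tumour as a block, since each tumour gives 1 sum to either class. Standard errors were taken from F, as |log2 fold change| over its square root. The rule genes and given markers stayed in library sizes. The fit was tested on simulated data. Genes named by size are the 12 largest and 12 smallest log2 fold changes among those that passed, with the same sign in 3 of 3 tumours and a mean of 20 CPM or more in the higher group. Others are members of 44 lists. Members and lists were chosen with earlier results of these data known. No fold is given where a group held 3 or fewer UMIs. Doublets were scored with Scrublet per tumour (scanpy 1.11.5) and kept, apart from an alternative without them. With 3 pairs, an exact two-sided test of a single value cannot go below p = 0.25, so shares carry no test. DESeq2 1.42.0, other normalizations, filters, gates, thresholds, thinning to 3000 UMIs and leaving out each tumour were alternatives.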

Additional observations from a re-analysis of the deposited data

Results flagged for a closer look

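Gastrokine RNA at 10 or more per 10000 UMIs was also found in kept cells that the epithelial gate left out and that no comparison used: 84 of 3388 such cells in tumour 1, 12 of 3968 in tumour 2 and 15 of 3506 in tumour 3. They were flagged as a signal in data outside the comparisons, since no stromal cell without Epcam and Krt18 UMIs reached that level. Of these 111 cells, 103 had more than 2 UMIs of Dcn plus Col3a1 (78, 12 and 13), and 8, 1 and 3 lacked Epcam or Krt18. Their median depth was 17361, 11828 and 9771 UMIs, above the 12588, 8935 and 8215 of the gastrokine-high cells, and Scrublet marked 7, 5 and 4 of them. The part of depth and of doublets in these counts was not tested.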

How the results depend on the processing

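The number of genes called against gastrokine-low cells ranged from 1772 to 2004 (780 to 1020 higher, 984 to 992 lower) when 1 tumour was left out, beside 2555 with all. It was 1468 (738 higher, 730 lower) with each cell thinned to 3000 UMIs, 1493 (701 higher, 792 lower) with Dcn plus Col3a1 at 0, and 1813 with DESeq2, of which 767 were lower. The tumour pairs both sums by design, and without this block 142 genes passed (86 higher, 56 lower), of which all 142 were among the 2555. Against Muc6-positive cells, 869 calls became 272 with DESeq2 (182 higher, 90 lower), 359 with thinning (260 higher, 99 lower), 451 with Dcn plus Col3a1 at 0 (312 higher, 139 lower) and 30 without the replicate block (21 higher, 9 lower), and they ranged from 295 to 958 (219 to 649 higher, 76 to 309 lower) without 1 tumour, the lowest being without tumour 1. Thinning and the stricter gate leave fewer counts, but the cause of these changes was not tested. Of the genes named against gastrokine-low cells, 80 lost their call without the block and at most 2 under any other alternative, apart from the step without acinar and islet cells, where 2 were lost and 4 turned: Ctrb1 (0.25), Ghrl (0.024), Ppy (0.26) and Prss2 (0.25). Ctrb1, Ghrl and Prss2 are themselves among the genes by which those cells were left out. Against Muc6-positive cells, 40 lost it without the block (15 unchanged), 3 without tumour 1 (51 unchanged), 2 with DESeq2 (57 unchanged) and 1 with thinning (54 unchanged). In either comparison, a named gene removed by the filter on low counts in a setting was not tested there. Such a gene counts neither as lost nor as unchanged. The share of gastrokine-high cells was 11.2% from 5 per 10000 in place of 7.94%, and 6.13% to 9.27% without 1 tumour. With the limit at 20 per 10000, 185, 102 and 136 cells of tumours 1, 2 and 3 remained, beside 279, 147 and 207. The share with a Mki67 UMI, 2.59%, was 2.33% with thinning before the gate, 2.71% with Dcn plus Col3a1 at 0 and 1.98% from 20 per 10000. Thinned shares without 1 tumour were 6.73% to 14.9% for Muc5ac, 24.2% to 32.0% for Muc6, 2.52% to 2.63% for Mki67 and 1.76% to 3.64% for Top2a. No alternative was run for the Muc5ac-positive comparison, since 3 and 6 cells in tumours 1 and 2 allow no test. A few positive cells per tumour limit the shares of Mki67, Top2a and Muc2, and 3 tumours limit all p-values. Beyond changes given above, fitted values moved by over 1.5 times for Inhba with thinning and Trbc1 with Dcn plus Col3a1 at 0. Csf2 did so without tumour 1, with thinning and with Dcn plus Col3a1 at 2 or less per 10000 UMIs. Onecut2 did so in several settings, between -0.079 and -0.29, without passing. Against Muc6-positive cells, Pla2g10 (5.08) and Ivl moved as far with thinning and Nqo1 (4.57) with Dcn plus Col3a1 at 0. All of these kept their direction. No fold is given for Csf2 and Ivl, which held 3 or fewer UMIs in a group.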
